A study of Mus musculus with 12 samples.

Results

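Coffee and control cochleae were compared over 15331 genes, those of the 34538 Ensembl genes in the deposited tables that reached 1 FPKM in at least 4 of the 8 libraries of these groups. FPKM is the number of sequenced fragments per kilobase of exon, scaled to the depth of the library. The coffee group held 4 cochlear libraries of wild-type C57BL/6J mice that had black coffee at 0.1% in their drinking water between 3 and 12 months of age. The control group held 4 cochlear libraries of wild-type C57BL/6J mice of 12 months that had plain water. A further group of 4 libraries, from wild-type C57BL/6J mice of the same age given 0.006% green tea extract (GTE) in the water over the same months, entered the fit, so that the spread between libraries rested on all 12. Every group thus shares the strain, which is known for age-related loss of high-frequency hearing. The labels do not say whether a library is a separate animal or a pool of cochleae, so all p-values measure the spread between libraries, which may be in part technical. Of the 15331 genes, 13621 (88.8%) were protein-coding.

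The cochlea converts sound into nerve impulses. Hair cells of the organ of Corti do the sensing, the stria vascularis secretes potassium into the endolymph and thereby powers them, fibrocytes of the spiral ligament return the potassium, and spiral ganglion neurons carry the signal to the brain. Caffeine, the best known compound of coffee, blocks adenosine receptors and, at higher concentrations, inhibits cyclic nucleotide phosphodiesterases and opens ryanodine receptors, the calcium channels of the endoplasmic reticulum, while other coffee compounds are known to act on enzymes that handle foreign chemicals. The cochlea lies in bone with marrow, and a dissected sample can carry marrow, bone, muscle and middle ear lining.

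The FPKM denominators, recovered from steps in the values, were 23037643 to 24406618 fragments in coffee and 20526024 to 24835934 in control, and 3 fragments, spread over 2000 bases of exon, would give 0.0604 to 0.0731 FPKM, a lower limit for counting error alone. Over all members the Pearson correlation was 0.937 to 0.970 within coffee, 0.953 to 0.975 within control and 0.912 to 0.978 between the groups, on the log2(FPKM + 1) scale. Marker genes of the cochlea were present. Otos of the spiral ligament averaged 192 ± 72.6 FPKM in coffee and 347 ± 14.9 FPKM in control (SD, n = 4 each, as for all means below), and Kcne1 of the stria averaged 16.7 ± 5.18 FPKM in coffee and 33.04 ± 2.43 FPKM in control. The pigment genes Tyrp1 and Oca2 and the hair cell genes Atoh1, Cdh23, Pcdh15 and Tmc2 stayed under the level needed for membership. Tissue from outside the cochlea was also present, with Mpo of marrow at 186 ± 60.7 FPKM in coffee and 57.9 ± 26.9 in control and the pituitary hormone gene Gh at 221 ± 228 FPKM in coffee and 685 ± 638 in control. Coffee 1 and coffee 4 stood apart. On the first principal component of the 8 libraries, which held 43.3% of the variance, they scored 46.3 and 34.6, against 7.36 and -7.78 for coffee 2 and 3 and -25.8 to -7.80 for the controls. They also had the highest means of a list of 17 granule protein genes of neutrophil precursors (log2 FPKM + 1 of 8.16 and 7.87, against 7.50 and 7.64 in coffee 2 and 3 and 6.39 to 7.29 in control). All 17 were above 0 in every library, and their summed level was 6631 to 11062 FPKM in coffee and 3947 to 6341 FPKM in control. GTE 1 had the highest mean of all (8.36). List medians were therefore also computed without coffee 1, coffee 4 and GTE 1, called the 3 marrow-rich libraries below, and with the mean of this list as a covariate in the fit, called the marrow covariate. Where one of these or leaving out a single library moved a list median by more than 1.5 times, the median so obtained stands beside it. For lists called near even, with medians close to 0, the first 2 of these values are given alone. The mean of the granule list did not overlap between coffee (7.50 or more) and control (7.29 or less). Medians with the marrow covariate therefore cannot separate marrow content from treatment, and they describe that fit only.

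A single gene passed the test across all genes. Serpinh1, the collagen chaperone gene, fell in coffee cochleae in limma with Benjamini-Hochberg adjustment (adjusted p = 0.0454), which is 0.00652% of the 15331 genes. Of the 61 gene lists compared, those of spiral ligament fibrocytes and strial marginal cells had the lowest median log2 differences, coffee minus control (-0.65 and -0.62), and those of skeletal muscle, mitosis and the interferon response the highest (1.03, 0.95 and 0.92). No member of any list other than Serpinh1 passed the adjusted threshold. Without adjustment, 3115 genes (20.3%) had a limma p under 0.05, made up of 1423 higher (9.28% of all genes) and 1692 lower (11.0%) in coffee. Coffee and control libraries did not overlap at all in 1992 genes, with all 4 coffee libraries higher in 916 (5.97%) and all 4 lower in 1076 (7.02%). Without coffee 2 or coffee 3, with fewer libraries to compare, 3004 or 4405 genes did not overlap. These shares are the background for the counts of each gene group below, together with the 7898 genes (51.5%) whose mean was higher and the 7433 (48.5%) whose mean was lower. The median log2 difference over all genes was 0.0086. The share higher in coffee among the genes at such a p moved with the processing. It was 45.7% of the 3115 genes as deposited, 69.4% of 1626 genes with the marrow covariate and 32.7% of 3271 genes when the libraries were quantile normalized. Without the 3 marrow-rich libraries the count was 1465, of which 1224 were among the 3115, and without coffee 1 or coffee 4 alone it was 1538 or 1641. Of the 1626 genes with the marrow covariate 341 were among the 3115. The number past the adjusted threshold rested on single libraries: it was 105 without coffee 3, 30 without GTE 1 and 0 or 1 without any other library, and with library weights estimated by limma it was 2622. Coffee libraries also varied more among themselves, with a median SD of log2(FPKM + 1) of 0.170 in coffee and 0.141 in control, and the SD was larger in coffee for 9064 genes (59.1%). Between coffee and GTE 0 genes (0.0%) passed in limma, with a smallest adjusted p of 0.123, and 1029 genes (6.71%) had an unadjusted p under 0.05.

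**Figure D1:**
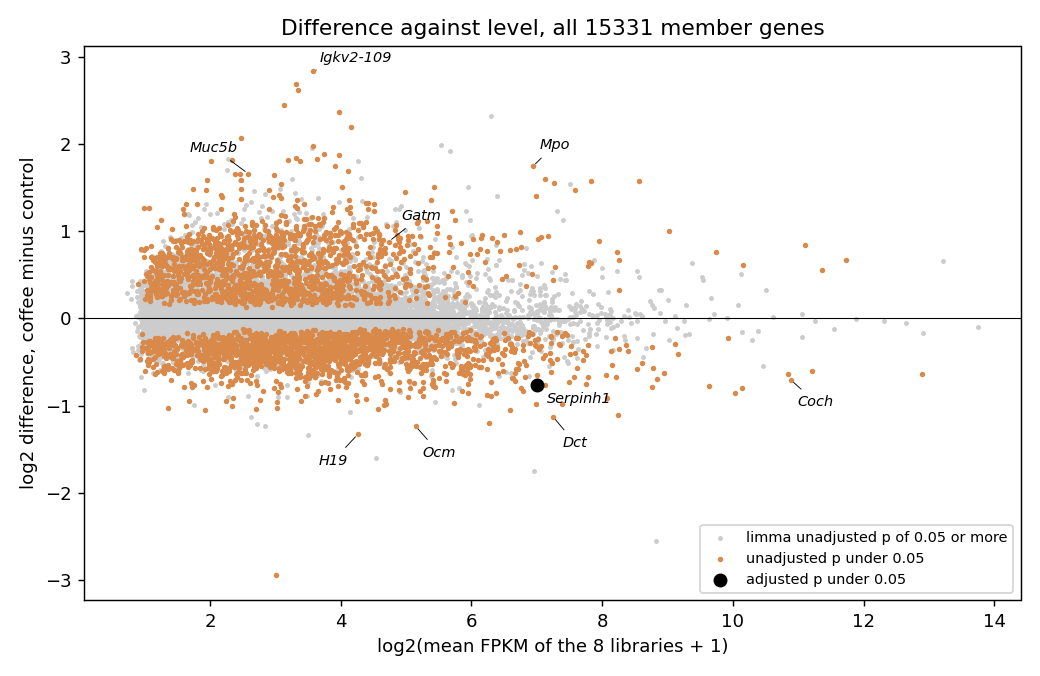
Difference against level for the 15331 genes. Each point is a gene, the horizontal axis is log2 of its mean FPKM over the 8 libraries plus 1, and the vertical axis is the log2 difference, coffee minus control. The 3115 genes at an unadjusted limma p under 0.05 are coloured, and the black point is Serpinh1, the gene that passed the adjusted threshold.

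Serpinh1 encodes HSP47, a chaperone of the endoplasmic reticulum that binds newly made procollagen. It is a member of the list of collagen folding genes and lies on chromosome 7 from 99345376 to 99353239, on the minus strand (mm10, ENSMUSG00000070436). Its level was 89.2, 93.1, 100.4 and 91.3 FPKM in the 4 coffee libraries and 172, 157, 164 and 147 FPKM in the 4 control libraries. The 4 coffee libraries all lay below the controls, with a wide gap and a small spread on each side. On the log2 scale it fell by 0.77 ± 0.090 (SE), and an exact two-sided permutation test over the 70 arrangements of 8 libraries gave p = 0.0286, the smallest that 8 libraries can give. In GTE cochleae Serpinh1 averaged 89.2 ± 10.7 FPKM, and the difference between coffee and GTE did not pass (coffee minus GTE 0.074 ± 0.090 SE, limma adjusted p = 0.850), so this fall is not shown to be particular to coffee. The log2 difference lay between -0.81 and -0.72 under all 27 alternatives, and 11 of them kept the adjusted p under 0.05. The call was lost without control 1, 2, 3 or 4, without coffee 1, 2 or 4 and without GTE 2 or 4 (limma adjusted p of 0.0725 to 0.296), and held without coffee 3, GTE 1 or GTE 3 (0.0171 to 0.0231). It was also lost without the 3 marrow-rich libraries (0.381), with the marrow covariate (0.0975), with only the coffee and control libraries in the fit (0.0806) and without the filter on low values (0.0808). Further losses came with robust moderation (0.0512), when FPKM was rescaled without mitochondrial and haemoglobin genes (0.119) and with the replicate number as a block in the limma fit (0.0933).

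The promoters of 3 genes are shown: Serpinh1, Kdelr3, a further gene of the endoplasmic reticulum among the leading lower genes, and Gatm, an enzyme gene among the leading higher ones. The windows are the 250 bases upstream of the annotated start, from RefSeq on GRCm38.p6, given 5′ to 3′ on the strand of the gene. Serpinh1 has several annotated starts and the window belongs to the most upstream of them. Capitals mark matches to the GC box GGGCGG, a binding site of SP1-type factors, or to the CCAAT box, on either strand. The Serpinh1 window is chr7:99353240-99353489 on the minus strand, that of Kdelr3 is chr15:79516158-79516407 on the plus strand, and that of Gatm is chr2:122611278-122611527 on the minus strand.
Serpinh1: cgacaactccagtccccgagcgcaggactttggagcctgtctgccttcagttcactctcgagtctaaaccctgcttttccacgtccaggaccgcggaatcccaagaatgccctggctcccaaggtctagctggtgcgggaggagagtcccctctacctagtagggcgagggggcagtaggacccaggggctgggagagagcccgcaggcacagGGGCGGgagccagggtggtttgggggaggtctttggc
Kdelr3: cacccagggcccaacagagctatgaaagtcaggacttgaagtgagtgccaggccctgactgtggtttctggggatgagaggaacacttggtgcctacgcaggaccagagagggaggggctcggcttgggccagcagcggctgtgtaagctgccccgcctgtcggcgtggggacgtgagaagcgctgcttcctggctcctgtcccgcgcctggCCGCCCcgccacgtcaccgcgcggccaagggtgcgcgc
Gatm: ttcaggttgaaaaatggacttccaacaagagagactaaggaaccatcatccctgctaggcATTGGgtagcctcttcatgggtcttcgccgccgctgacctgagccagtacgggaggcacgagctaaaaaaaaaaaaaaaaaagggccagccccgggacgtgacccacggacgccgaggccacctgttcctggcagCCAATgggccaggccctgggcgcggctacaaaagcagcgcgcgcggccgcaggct
The windows of Serpinh1 and Kdelr3 hold 1 GC box each, starting 37 and 38 bases upstream of the start. That of Gatm holds 2 CCAAT boxes, at 190 and 55 bases. GC boxes occur in 32.74% and CCAAT boxes in 33.85% of the 32851 promoter windows of the same length. None of the 3 windows holds the full heat shock element (0.4657% of all windows), the endoplasmic reticulum stress element (0.1126%) or the TATA box TATAAA (12.37%), searched on both strands. The matches describe these letters only.

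The other genes lowest by p-value did not pass in limma (adjusted p of 0.193 for each of those in this paragraph). Kdelr3 encodes a receptor that returns escaped chaperones from the Golgi to the endoplasmic reticulum. Its values were 8.69, 8.16, 8.98 and 8.33 FPKM in coffee and 12.05, 12.9, 12.7 and 11.2 FPKM in control, without overlap (log2 difference -0.47 ± 0.085 SE). Igfbp5, a secreted binding protein of insulin-like growth factors, had 233, 216, 241 and 228 FPKM in coffee and 348, 334, 321 and 333 FPKM in control. The groups lay far apart relative to their spread, and the difference was -0.54 ± 0.10 (SE). Glutaminyl cyclase, Qpct, which modifies the ends of secreted peptides, had 6.81, 6.89, 9.41 and 7.85 FPKM in coffee and 12.8, 13.4, 13.7 and 12.1 FPKM in control (-0.69 ± 0.11 SE). The tetraspanin gene Tspan11 had 5.40, 6.13, 4.42 and 5.17 FPKM in coffee and 10.04, 9.40, 9.56 and 9.26 FPKM in control (-0.76 ± 0.13 SE). In both, no coffee library reached the lowest control library. Vmo1, named after an egg membrane protein, had the largest of these differences, with 31.9, 48.1, 66.2 and 40.9 FPKM in coffee and 99.1, 93.2, 109.6 and 122 FPKM in control (-1.20 ± 0.22 SE). Coffee 1 was lowest and coffee 3 highest of its group, an order that recurs in many strial genes below. Smaller non-overlapping differences were seen for the securin-binding protein Pttg1ip (-0.38), the small GTPase Rhoj (-0.57), the Ras-like growth inhibitor Rerg (-0.46), Jmjd8 of the endoplasmic reticulum (-0.44) and the tetraspanin Tspan10 (-0.93). Jmjd8 shares 39.3% of its exon bases with Stub1, so its value is uncertain where counting did not use strand.

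The lower genes with the largest differences at an unadjusted p under 0.01 came from several tissues. H19, an imprinted long noncoding RNA of fetal and mesenchymal tissue, had 16.9, 8.50, 6.74 and 7.95 FPKM in coffee and 40.4, 21.2, 25.4 and 18.3 FPKM in control (-1.33 ± 0.32 SE). Oncomodulin, Ocm, the calcium buffer of outer hair cells, had 12.3, 15.1, 35.4 and 22.1 FPKM in coffee and 47.7, 49.8, 48.2 and 44.7 FPKM in control (-1.24 ± 0.25 SE). The 4 controls lay close together, whereas the coffee libraries were spread widely, with coffee 1 lowest and coffee 3 highest. Dct, a melanin synthesis enzyme, had 70.5, 112, 124 and 76.9 FPKM in coffee and 172, 193, 232 and 228 FPKM in control (-1.13 ± 0.21 SE), with every coffee library lower. The nuclease gene Dnase1 (-1.06, 18.1% of exon bases shared), the fatty acid receptor gene Ffar4 (-1.05) and the cartilage lectin gene Clec3a (-1.03) completed this group apart from a microRNA gene at low levels. Ffar4 overlapped between the groups, with 1.06 to 1.85 FPKM in coffee and 1.64 to 6.65 FPKM in control. In limma none of these passed (adjusted p of 0.193 to 0.197).

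On the higher side the genes with the smallest p-values included metabolic and membrane traffic genes. Gatm, which catalyses the first step of creatine synthesis, had 32.4, 35.6, 27.8 and 37.6 FPKM in coffee and 22.1, 16.6, 13.1 and 19.7 FPKM in control. Every coffee library lay above every control (0.88 ± 0.16 SE). Prkab2, the beta-2 subunit of AMP-activated kinase, a sensor of low cellular energy, had 6.24, 6.40, 5.52 and 6.92 FPKM in coffee and 4.93, 4.57, 4.16 and 4.29 FPKM in control (0.40 ± 0.077 SE). Ap1s2, a subunit of the clathrin adaptor that sorts cargo at the trans-Golgi, had 15.6, 14.7, 15.2 and 16.4 FPKM in coffee and 11.4, 10.5, 8.97 and 12.02 FPKM in control (0.50 ± 0.081 SE). In both genes the groups were well separated. Foxn2, a forkhead transcription factor gene, had 7.61, 5.22, 5.01 and 6.39 FPKM in coffee and 4.02, 2.99, 3.38 and 3.49 FPKM in control (0.65 ± 0.14 SE). The phosphatase gene Ppm1j had 7.90, 8.30, 4.92 and 6.74 FPKM in coffee and 3.20, 4.78, 2.38 and 1.94 FPKM in control (0.99 ± 0.21 SE), and coffee 3 came close to control 2. P2ry1, a receptor for extracellular ADP, had 6.24, 6.78, 4.78 and 5.80 FPKM in coffee and 4.40, 3.997, 4.02 and 4.51 FPKM in control (0.39 ± 0.090 SE). It shares 23.1% of its exon bases with another gene. Ogfrl1 (0.71), the tetraspanin Tspan2 of myelinating glia (0.73), Lnpk, which shapes junctions of the endoplasmic reticulum (0.37), the ankyrin repeat gene Sowahc (0.33) and the membrane thioredoxin gene Tmx4 (0.32) were also higher without overlap. The limma adjusted p of all of these was 0.193, and against GTE none of them passed either (adjusted p of 0.719 or more for coffee minus GTE).

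**Figure D2:**
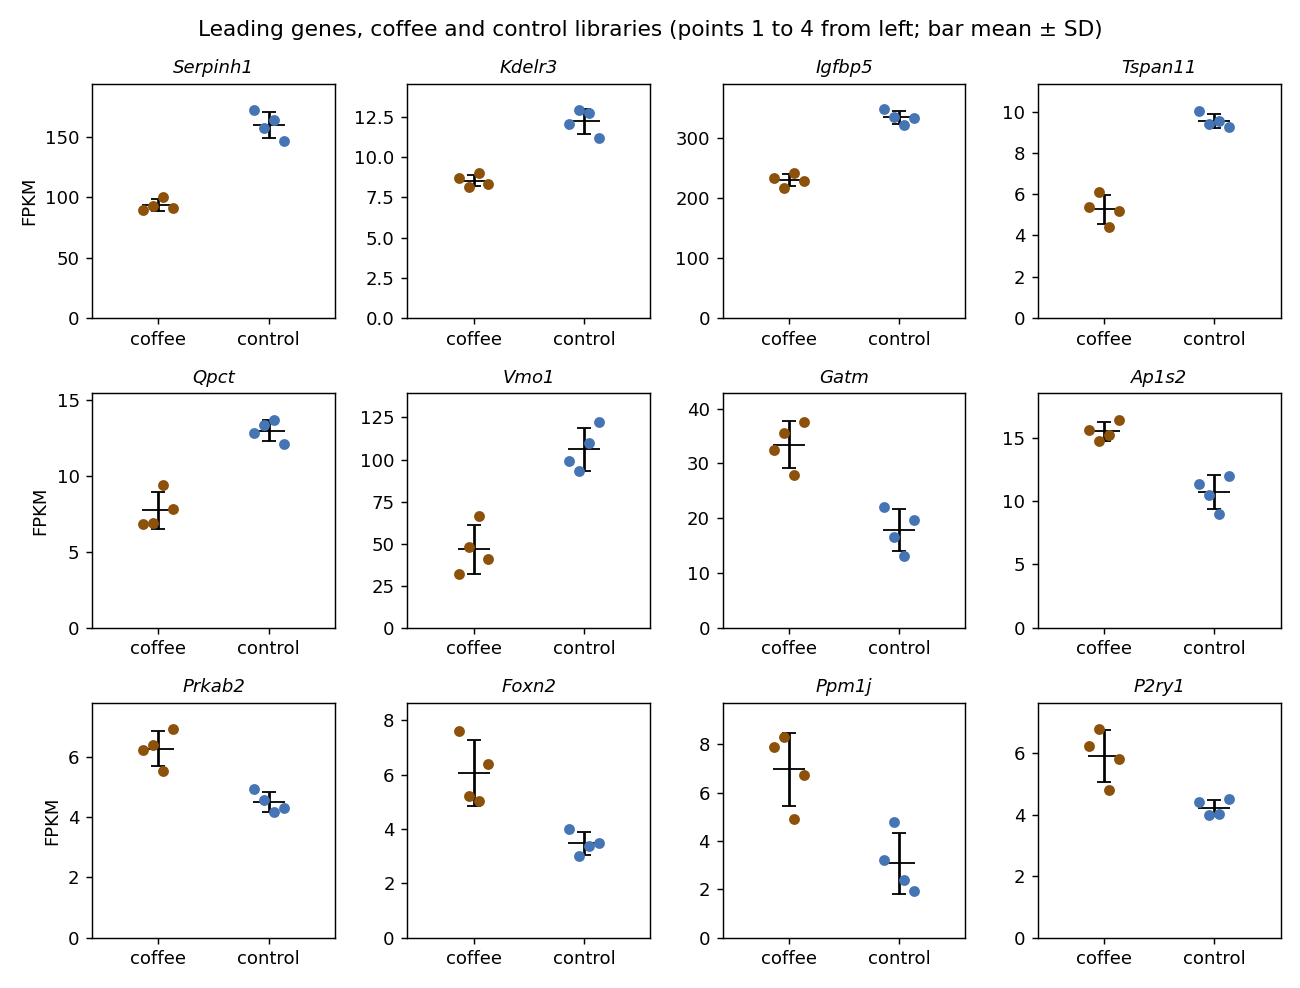
FPKM of 12 leading genes in each library. Points are libraries 1 to 4 from left to right in each group, coffee left and control right, and bars are mean ± SD (n = 4). In all 12 panels the coffee and control points do not overlap, and Serpinh1 is the gene that passed the adjusted threshold.

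The largest higher differences at an unadjusted p under 0.01 were of immunoglobulin variable segments. Igkv2-109 had 8.36, 8.28, 54.7 and 9.76 FPKM in coffee and 3.77, 0, 0.861 and 1.26 FPKM in control (2.83 ± 0.75 SE). Coffee 3 alone was far above the rest. Igkv3-12 had 3.02, 5.71, 2.40 and 59.4 FPKM in coffee and 0.693, 0, 0.673 and 0.120 FPKM in control (2.69 ± 0.77 SE), with coffee 4 far above the rest. Igkv17-127 (2.44), Igkv1-117 (2.19), the joining segment Igkj3 (1.80) and Ighv1-7 (1.66) were also higher in every coffee library. Variable segments can resemble each other in sequence, and how far they shared reads was not measured, so single values are uncertain. The mucin gene Muc5b of secretory epithelium had 6.99, 14.8, 5.70 and 4.68 FPKM in coffee and 1.29, 3.73, 2.48 and 0.281 FPKM in control (1.66 ± 0.49 SE).

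The adenosine and ryanodine receptors, direct targets of caffeine, were measured at low levels. Adora1, the adenosine A1 receptor, had 2.27, 4.62, 2.42 and 3.46 FPKM in coffee and 3.25, 2.80, 1.41 and 2.35 FPKM in control, and the ranges overlapped. It shares 20.1% of its exon bases with Mybph. Adora2a averaged 1.88 ± 0.618 FPKM in coffee and 1.22 ± 0.786 FPKM in control, and Adora2b averaged 2.23 ± 0.228 FPKM in coffee and 2.13 ± 1.16 FPKM in control. Ryanodine receptors did not reach the level needed for membership: Ryr2 averaged 0.576 ± 0.238 FPKM in coffee and 0.467 ± 0.117 FPKM in control, and Ryr3 averaged 0.440 ± 0.105 FPKM in coffee and 0.353 ± 0.100 FPKM in control. Ryr1, the ryanodine receptor of skeletal muscle, was at 0.177, 0.0728, 1.61 and 0.201 FPKM in coffee and 0.158, 0.0357, 0.247 and 0.0433 FPKM in control. Coffee 3 alone exceeded 1 FPKM, and it also had the highest mean of the skeletal muscle list (log2 FPKM + 1 of 3.30, 2.60, 6.54 and 3.46 in coffee 1 to 4 and 3.31, 1.79, 4.99 and 2.16 in control 1 to 4). All 17 tested muscle genes had a higher mean in coffee, 1 at an unadjusted limma p under 0.05, with a median of 1.03 that was 1.64 without coffee 2, 0.022 without coffee 3, 0.49 without control 2, 1.95 without control 3, 0.60 without control 4, 1.69 without the 3 marrow-rich libraries and 0.28 with the marrow covariate. For the receptors no test is given, since they were named for their role.

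Adenosine handling genes lay mostly on the higher side. Of 13 tested, 9 were higher and 4 lower, against 51.5% and 48.5% of all genes. At an unadjusted limma p under 0.05, 3 were higher, where 9.28% of all genes stood, and the list median was 0.12. Ahcy, which hydrolyses S-adenosylhomocysteine to adenosine and homocysteine, had 21.3, 17.8, 16.1 and 20.1 FPKM in coffee and 15.04, 15.4, 14.8 and 13.02 FPKM in control (0.34 ± 0.11 SE). Ada, which deaminates adenosine, had 9.995, 5.24, 6.77 and 5.45 FPKM in coffee and 3.91, 3.60, 3.92 and 3.52 FPKM in control (0.69 ± 0.30 SE). The concentrative nucleoside transporter gene Slc28a2 had 18.9, 8.27, 9.37 and 13.1 FPKM in coffee and 7.64, 4.54, 4.97 and 4.52 FPKM in control (1.02 ± 0.36 SE). In all 3 genes every coffee library lay above the controls, as in 5.97% of all genes, and coffee 1, rich in marrow transcripts, was the highest library. The list median was 0.21 without coffee 3, 0.069 without coffee 4, 0.19 without control 1, 0.074 without control 2, 0.069 without the 3 marrow-rich libraries and 0.026 with the marrow covariate. The part of marrow cells in these differences was not tested.

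For phosphodiesterases, cyclic AMP signalling and calcium stores the list medians were close to 0, and members lay on both sides. Phosphodiesterases were near even (median 0.030, -0.0073 without the 3 marrow-rich libraries and 0.030 with the marrow covariate), with 8 of 14 tested members higher, none at an unadjusted p under 0.05 in limma (1423 of all genes were higher there and 1692 lower) and a range from -0.25 to 0.24. Among 21 genes of cyclic AMP signalling 14 were higher, with 1 higher and 3 lower at an unadjusted p under 0.05 (median 0.042, 0.064 without coffee 1, 0.0031 without coffee 2, 0.076 without coffee 3, 0.079 without control 2, -0.018 without control 3 and 0.083 with the marrow covariate). The adenylyl cyclase gene Adcy6 had 13.5, 15.001, 14.7 and 13.7 FPKM in coffee and 18.1, 19.3, 19.9 and 16.7 FPKM in control (-0.35 ± 0.074 SE), with every coffee library lower. Rapgef3, a cyclic AMP-activated exchange factor, averaged 14.2 ± 3.27 FPKM in coffee and 20.9 ± 1.08 FPKM in control (-0.54). Adcy7, a cyclase of blood cells, was higher instead, at 11.4 ± 3.68 FPKM in coffee and 6.30 ± 0.830 FPKM in control (0.72). Of 12 calcium store genes 7 were higher and 5 lower, with 2 higher and 3 lower at an unadjusted p under 0.05, a range from -0.48 to 1.61 and a median of 0.080 (-0.053 with the marrow covariate). The gene at 1.61 is also on the skeletal muscle list, in which coffee 3 had the highest mean (6.54). Its groups overlapped, and the part of carried-over muscle was not tested. The inositol trisphosphate receptor genes Itpr1 and Itpr2 were lower in every coffee library (-0.48 and -0.23). Itpr1 had 10.8 to 16.4 FPKM in coffee and 16.9 to 21.7 FPKM in control, and Itpr2 3.61 to 4.22 FPKM in coffee and 4.47 to 4.83 FPKM in control. All the genes named here missed the adjusted threshold in limma (adjusted p of 0.193 or more).

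Enzymes that handle foreign compounds leaned lower, and those that handle oxidants lay on both sides. Of 19 tested genes of the aryl hydrocarbon receptor pathway and of xenobiotic metabolism, 13 were lower, 7 of them at an unadjusted limma p under 0.05, where 11.0% of all genes stood, and 6 without overlap, against 7.02%. The median was -0.19 and lay within 1.5 times of that under every alternative run. Cyp1b1, a target of the receptor that oxidises steroids and polycyclic compounds, had 25.1, 28.4, 24.7 and 21.3 FPKM in coffee and 35.3, 33.2, 40.9 and 40.4 FPKM in control (-0.57 ± 0.11 SE). The glutathione transferase gene Gsta4, whose product clears lipid peroxides, had 58.7, 92.3, 122 and 70.7 FPKM in coffee and 143, 155, 188 and 173 FPKM in control (-0.98 ± 0.23 SE). Gstp1, of the same enzyme class, had 76.5 to 93.1 FPKM in coffee and 98.5 to 115 FPKM in control (-0.30). In all 3 the groups did not overlap. Cyp1a1 and Cyp1a2, the best known induced genes of the receptor, were too low to be members. Antioxidant enzymes were lower in 14 of 20, with 5 lower and 2 higher at an unadjusted p under 0.05 and a median of -0.14 (-0.082 without coffee 1, -0.063 without control 2, -0.055 without the 3 marrow-rich libraries and -0.082 with the marrow covariate). Without overlap 3 were higher and 3 lower, against 5.97% and 7.02% of all genes, and members ranged from -0.58 to 0.77. Gpx7 and Gpx8, peroxidases of the endoplasmic reticulum, were lower in every coffee library. Gpx7 had 5.59 to 6.003 FPKM in coffee and 7.22 to 8.14 FPKM in control (-0.34), and Gpx8 31.5 to 40.3 FPKM in coffee and 47.3 to 55.8 FPKM in control (-0.46). Secreted Gpx3 was at 287, 260.3, 402 and 249.5 FPKM in coffee and 428, 485, 462 and 393 FPKM in control, where coffee 3 reached into the control range.

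Heat shock genes of the cytosol were lower in 19 of 20 members, but by little, with a median of -0.13 and none at an unadjusted p under 0.05 in limma. Hspa8, the constitutive HSP70, had 409, 481, 518 and 479.7 FPKM in coffee and 593, 529.6, 648 and 486 FPKM in control. The list median was -0.085 without coffee 1, -0.20 without coffee 2, -0.059 without control 3, -0.23 without control 4, -0.053 without the 3 marrow-rich libraries and -0.046 with the marrow covariate. Among chaperones and stress genes of the endoplasmic reticulum 13 of 20 were lower, 3 of them at an unadjusted p under 0.05 (11.0% of all genes), with a median of -0.095 (-0.062 without coffee 2, -0.035 without control 3 and -0.24 with the marrow covariate). They were Dnajc3 (-0.35), Herpud1 (-0.36) and Hspa5, or BiP (-0.32), which had 166, 139.8, 193 and 150.2 FPKM in coffee and 214, 159, 251 and 190.2 FPKM in control with overlap. The Serpinh1 difference was thus larger than that of any general chaperone gene in these lists, whose lowest values were -0.54 and -0.36. That order is a description and was not tested.

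**Figure D3:**
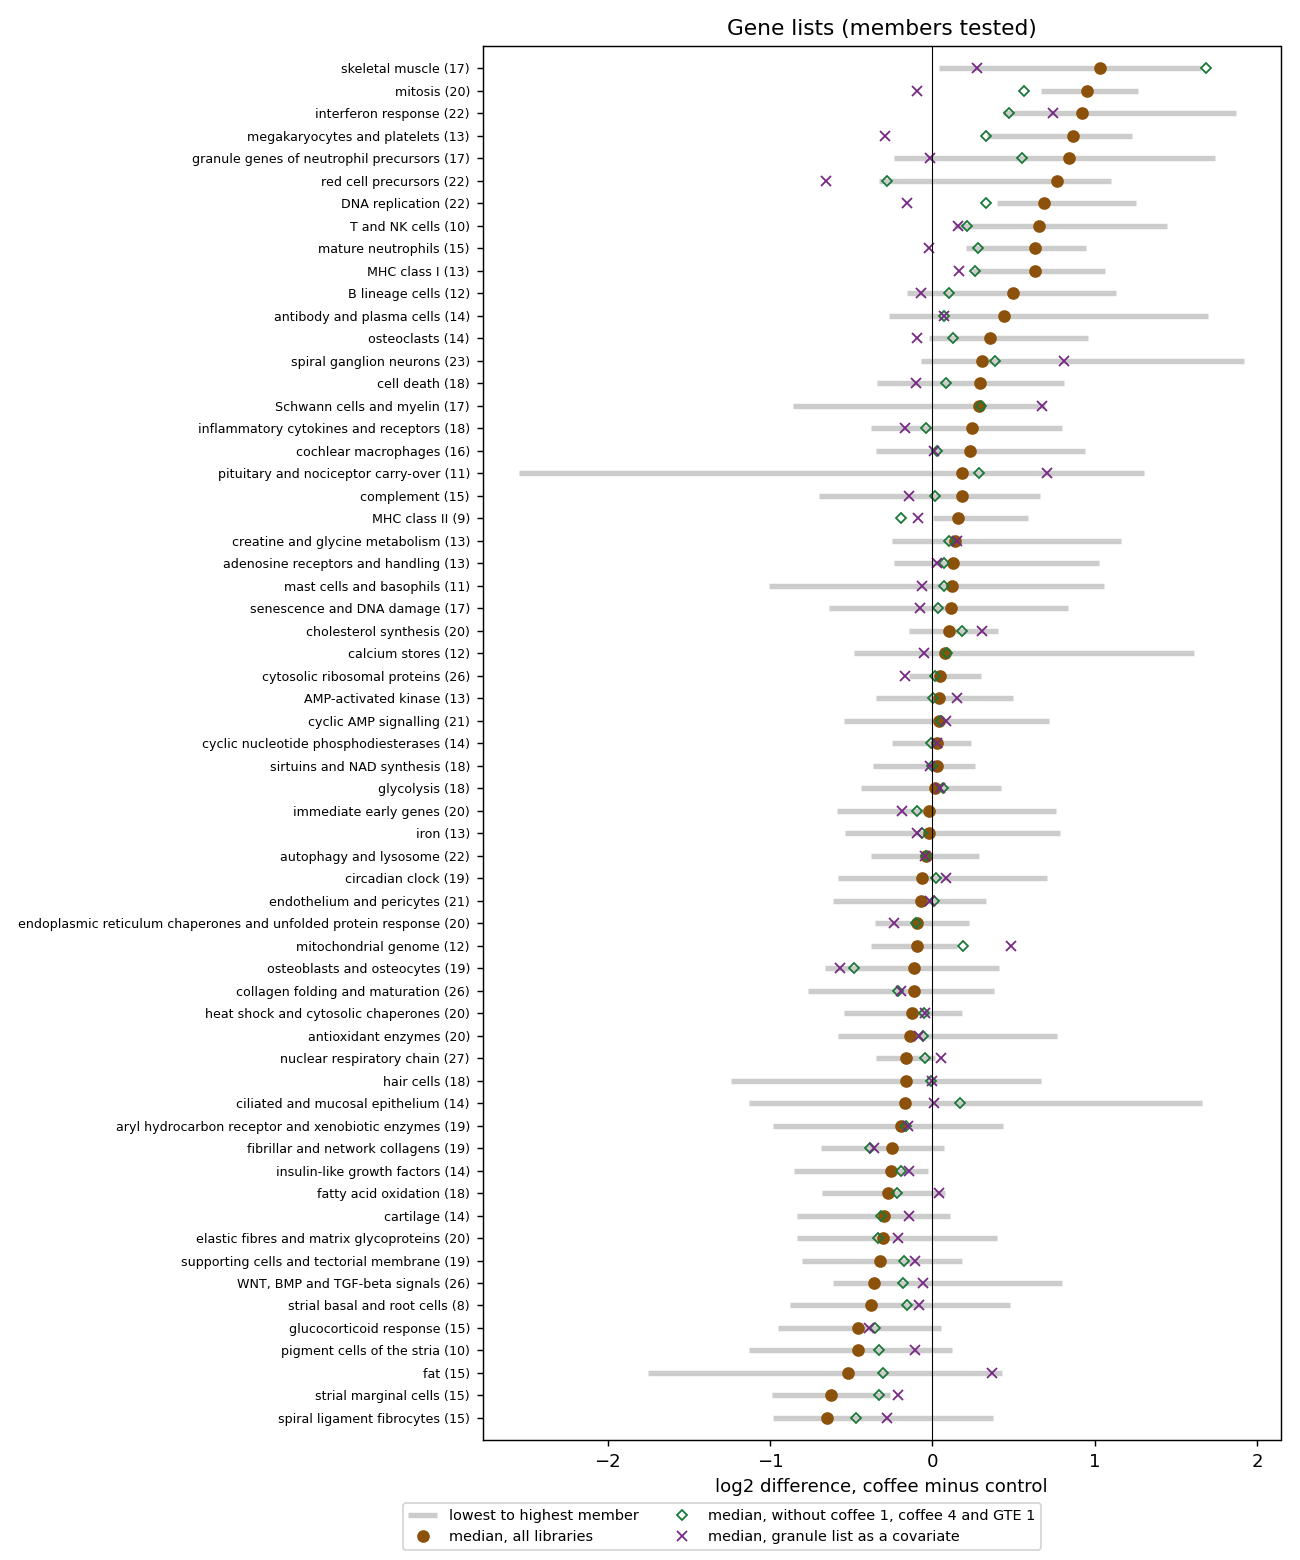
Log2 difference, coffee minus control, for the 61 gene lists, sorted by median. Grey bars run from the lowest to the highest tested member, filled circles are medians over all libraries, open diamonds are medians without coffee 1, coffee 4 and GTE 1, and crosses are medians with the marrow covariate. Spiral ligament fibrocytes (-0.65) lie at the bottom and skeletal muscle (1.03) at the top.

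Genes of the stria vascularis and of the spiral ligament lay on the lower side. Marginal cell genes, which carry out potassium secretion, were lower in all 15 tested members, with 13 at an unadjusted limma p under 0.05 (11.0% of all genes were lower there) and 11 without overlap (7.02% of all genes), and the list median was -0.62. List means of log2(FPKM + 1) were 3.53, 3.997, 4.20 and 3.52 in coffee 1 to 4 and 4.33, 4.47, 4.51 and 4.42 in control 1 to 4. Coffee 1 and 4 were lowest and coffee 3 highest of the coffee libraries, and all 4 lay below the controls. The potassium channel gene Kcne1 was at 12.7, 17.4, 23.7 and 12.8 FPKM in coffee and 31.1, 33.5, 36.3 and 31.3 FPKM in control (-0.99 ± 0.23 SE). Kcnq1, which encodes the pore of the same channel, was at 5.77, 8.20, 10.2 and 5.41 FPKM in coffee and 12.2, 13.4, 14.3 and 12.3 FPKM in control (-0.78 ± 0.19 SE). In both, and in the endocytic receptor gene Lrp2 (-0.89), coffee 1 and 4 were lowest, coffee 3 was the highest of its group and no coffee library reached a control. In bulk tissue fewer cells of a type and less RNA per cell cannot be told apart. Pigment cell genes of the stria were lower in 9 of 10 members (median -0.46, 5 at an unadjusted p under 0.05). Slc45a2, a melanosome transporter, had 6.94 to 14.8 FPKM in coffee and 16.4 to 23.3 FPKM in control, and Mlana 11.2 to 27.1 FPKM in coffee and 25.6 to 35.3 FPKM in control. Basal and root cell genes were lower in 7 of 8 members (median -0.38), among them pendrin, Slc26a4, an anion exchanger, at 33.6, 63.04, 81.3 and 38.2 FPKM in coffee and 74.6, 89.7, 119 and 97.1 FPKM in control. Fibrocyte genes were lower in 13 of 15 members, 11 at an unadjusted p under 0.05 and 6 without overlap (median -0.65). Slc4a11, a membrane transporter gene, was at 107, 90.7, 169 and 88.3 FPKM in coffee and 188, 236, 244 and 209 FPKM in control (-0.98 ± 0.20 SE). Slc4a10, a sodium-coupled bicarbonate transporter gene, was at 21.1, 27.4, 30.99 and 22.9 FPKM in coffee and 40.2, 36.9, 48.7 and 61.7 FPKM in control (-0.83 ± 0.23 SE). Neither overlapped between the groups. Otos, or otospiralin, was at 162, 143, 299.7 and 163 FPKM in coffee and 339, 369, 338 and 342 FPKM in control, with coffee 3 close to the controls and the other 3 well below. Without the 3 marrow-rich libraries the medians of these 4 lists were -0.33, -0.33, -0.16 and -0.47, and with the marrow covariate -0.21, -0.11, -0.080 and -0.28. Beside these, the summed granule list was higher in every coffee library than in any control (values above), and its part in the lower strial and ligament values was not tested.

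**Figure D4:**
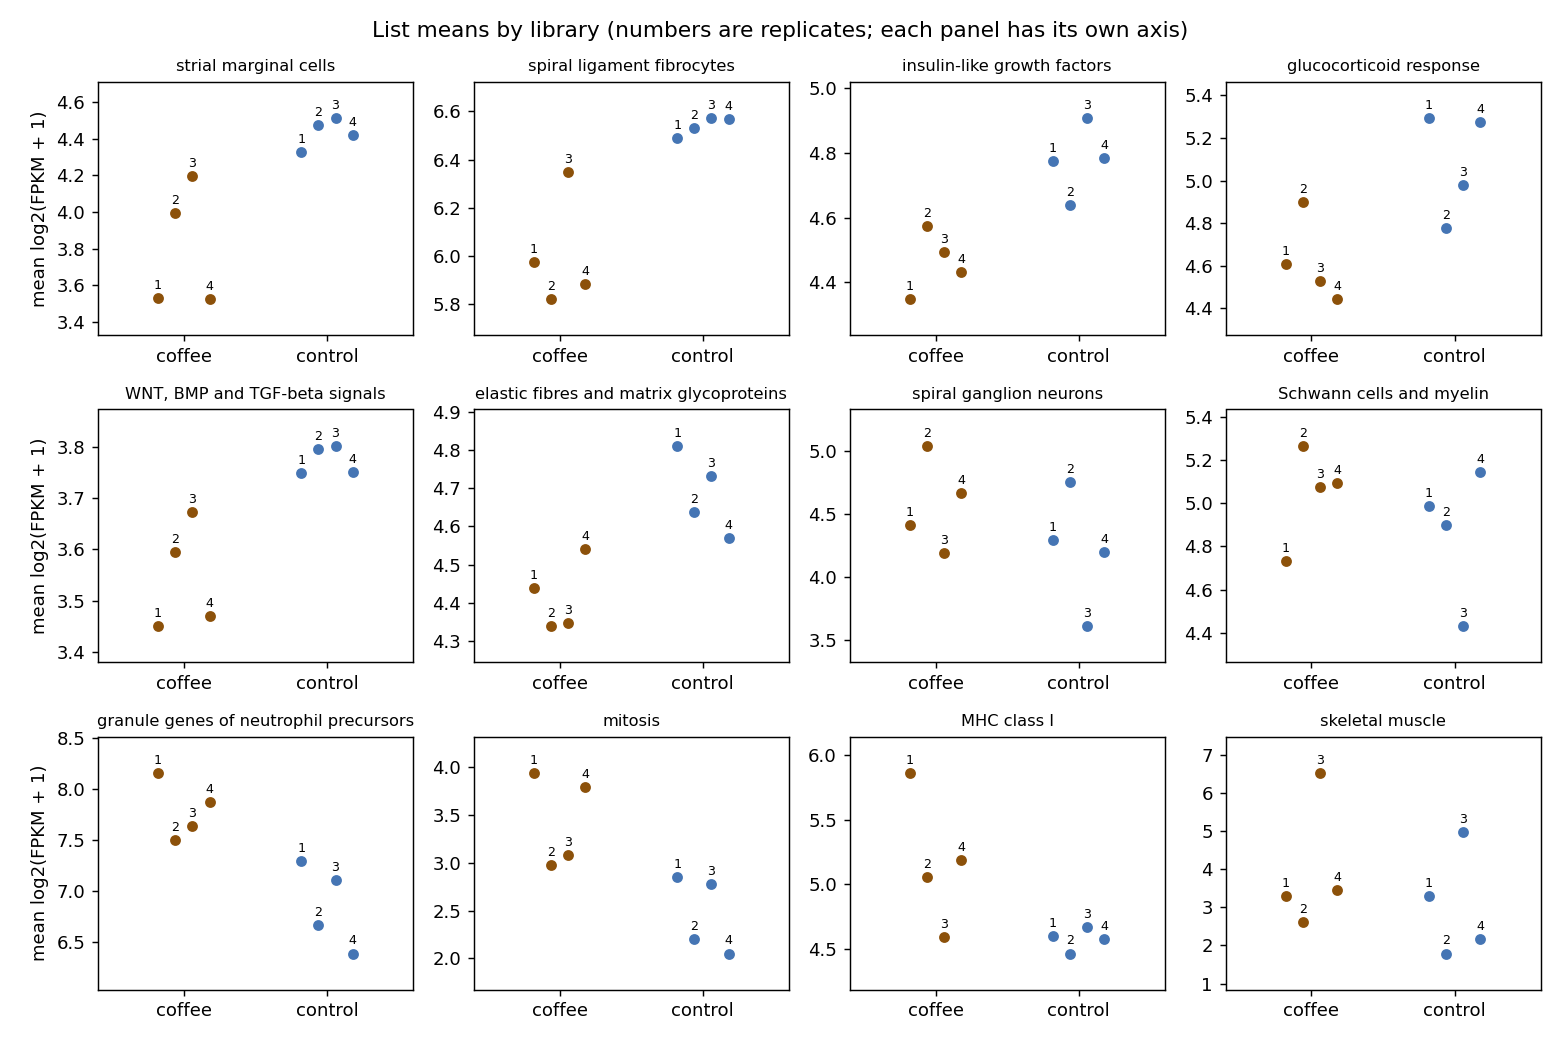
Mean log2(FPKM + 1) of 12 gene lists in each library, coffee left and control right, each panel with its own vertical axis. Numbers are the replicates. Coffee and control libraries do not overlap in the lists of strial marginal cells, ligament fibrocytes, insulin-like growth factors, WNT, BMP and TGF-beta signals, elastic fibres, granule genes and mitosis, and do overlap in the others.

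In the organ of Corti the differences depended on the gene. Of 18 tested hair cell genes 13 were lower and 5 higher, with 4 lower and 2 higher at an unadjusted limma p under 0.05, where 11.0% and 9.28% of all genes stood (median -0.17). Gfi1 of this list is also among the granule genes of neutrophil precursors, and Pvalb is also on the skeletal muscle list. The cells of origin of their transcripts were not tested. Prestin, Slc26a5, the motor of outer hair cells, had 0.834, 1.14, 2.61 and 1.40 FPKM in coffee and 2.87, 3.31, 2.94 and 3.01 FPKM in control (-0.74 ± 0.18 SE), with coffee 3 highest of its group as for Ocm above. Calretinin, Calb2, a calcium buffer, had 106, 108, 132 and 117 FPKM in coffee and 142, 193, 176 and 207 FPKM in control (-0.62 ± 0.19 SE). The list median was -0.11 without coffee 1, -0.34 without coffee 3, -0.081 without coffee 4, -0.11 without control 1, -0.29 without control 4, -0.0073 without the 3 marrow-rich libraries and -0.0049 with the marrow covariate. In supporting cells and the tectorial membrane 16 of 19 genes had a lower mean in coffee, 8 of them at an unadjusted p under 0.05 (median -0.32, -0.17 without the 3 marrow-rich libraries and -0.10 with the marrow covariate). Col11a2, a collagen chain of the tectorial membrane and of cartilage, had 63.4, 59.7, 73.7 and 63.1 FPKM in coffee and 95.1, 101, 81.1 and 83.04 FPKM in control (-0.46 ± 0.096 SE). Ceacam16, a tectorial glycoprotein gene, had 103 to 203 FPKM in coffee and 189 to 270.4 FPKM in control, and shares 23.2% of its exon bases with another gene.

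Neuronal and glial genes lay on the higher side without passing. Of 23 spiral ganglion neuron genes 22 were higher in coffee, none at an unadjusted p under 0.05 in limma, with a median of 0.31 (0.16 without coffee 2, 0.10 without control 3 and 0.81 with the marrow covariate). The list means were 4.42, 5.04, 4.19 and 4.67 in coffee 1 to 4 and 4.30, 4.75, 3.61 and 4.20 in control 1 to 4, and control 3 was the lowest library. Bulk tissue does not show from which ganglion these neuronal transcripts came. A list of carry-over joins pituitary genes with genes of pain-sensing neurons. Of its 11 tested genes 6 were higher and 5 lower, a split that describes neither source alone. Gh and Cga of the pituitary had lower means in coffee (-2.55 and -0.99), and Tac1 of pain-sensing neurons a higher one (0.92), all with overlap. The part of neighbouring ganglia was not tested. The RNA-binding protein gene Elavl4 had 10.6, 15.9, 9.01 and 12.2 FPKM in coffee and 7.51, 8.40, 6.77 and 10.4 FPKM in control. Schwann cell and myelin genes were higher in 12 of 17 (median 0.29, 0.079 without control 3 and 0.68 with the marrow covariate). Ncmap, a peripheral myelin protein gene, had 13.2, 16.6, 13.6 and 11.5 FPKM in coffee and 6.81, 8.07, 6.27 and 11.9 FPKM in control, and Prx, or periaxin, 13.3 to 19.6 FPKM in coffee and 7.51 to 13.3 FPKM in control. S100b, a calcium-binding protein that glia and other cochlear cells make, ran the opposite way, with 597, 685, 1065 and 657 FPKM in coffee and 1214, 1207, 1572 and 1337 FPKM in control (-0.86 ± 0.21 SE). In the fit with the marrow covariate Ncmap (1.37, limma adjusted p = 0.0333) and the mitochondrial transfer RNA gene mt-Tp were the genes past the threshold, both named after their values were seen. Endothelial and pericyte genes were close to even (median -0.068, -0.036 without coffee 1, -0.040 without control 4, 0.011 without the 3 marrow-rich libraries and -0.012 with the marrow covariate, 16 of 21 lower), though endomucin, Emcn, was at 6.84 to 11.4 FPKM in coffee and 11.6 to 14.6 FPKM in control (-0.61 ± 0.14 SE).

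Genes of the extracellular matrix lay lower together with Serpinh1. In the list of collagen folding and maturation enzymes, 19 of 26 members were lower, 9 at an unadjusted limma p under 0.05 and 8 without overlap, against 11.0% and 7.02% of all genes, and the median was -0.11 (-0.072 without control 1, -0.18 without control 4, -0.21 without the 3 marrow-rich libraries and -0.19 with the marrow covariate). Beside Serpinh1 they included Plod2, a lysyl hydroxylase that prepares collagen for cross-links, at 8.30, 11.2, 11.2 and 10.1 FPKM in coffee and 14.6, 14.4, 14.3 and 12.04 FPKM in control (-0.41 ± 0.12 SE). Loxl1, a lysyl oxidase that forms such links, was at 12.7, 12.04, 10.9 and 11.8 FPKM in coffee and 18.8, 17.9, 16.6 and 12.9 FPKM in control (-0.44 ± 0.12 SE). The range reached 0.38 on the higher side, so members lay on both sides. Collagen chains were lower in 15 of 19, 9 at an unadjusted p under 0.05 but 2 without overlap (median -0.25, -0.39 without the 3 marrow-rich libraries). Col6a1 had 12.1 to 25.9 FPKM in coffee and 23.2 to 33.4 FPKM in control, Col8a1 14.4 to 17.5 FPKM in coffee and 16.7 to 30.2 FPKM in control, and Col14a1 3.05 to 4.06 FPKM in coffee and 4.20 to 5.53 FPKM in control. Elastic fibre and matrix glycoprotein genes were lower in 16 of 20 (median -0.30), and the median lay within 1.5 times of that value under every alternative run. Efemp1, or fibulin-3, had 65.5, 64.7, 70.96 and 60.7 FPKM in coffee and 95.97, 94.7, 96.7 and 122 FPKM in control (-0.63 ± 0.17 SE). Fbln1, or fibulin-1, had 26.05, 25.1, 20.9 and 20.4 FPKM in coffee and 32.7, 30.8, 29.6 and 33.5 FPKM in control (-0.44 ± 0.14 SE). Mfap4, a microfibril-associated protein gene, averaged 7.95 ± 1.68 FPKM in coffee and 15.3 ± 4.37 FPKM in control, and its groups overlapped. Cartilage genes were lower in 13 of 14 (median -0.30, -0.15 with the marrow covariate), led by chondromodulin, Cnmd, at 56.7 to 107 FPKM in coffee and 116 to 155 FPKM in control. Bone-forming genes were mixed, with 12 of 19 lower and a median of -0.11 (-0.29 without coffee 1, 0.056 without coffee 2, -0.041 without coffee 3, -0.26 without coffee 4, 0.092 without control 1, 0.048 without control 2, -0.32 without control 3, -0.27 without control 4, -0.48 without the 3 marrow-rich libraries and -0.57 with the marrow covariate). Spp1, or osteopontin, was at 1033 to 1879 FPKM in coffee and 2086 to 2518 FPKM in control. It was the 1 member of this list at an unadjusted limma p under 0.05 and without overlap, so it does not stand for the list. Coffee 4 had the lowest Spp1 of its group but the highest mean of the bone-forming list (4.56). The source of the Spp1 transcripts was not tested.

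Genes of growth factor systems lay on the lower side as well. All 14 tested genes of the insulin-like growth factor system were lower in coffee, 6 at an unadjusted limma p under 0.05 and 5 without overlap, against 11.0% and 7.02% of all genes (median -0.26, -0.14 with the marrow covariate). The ligand gene Igf1 had 6.16, 8.31, 11.3 and 8.38 FPKM in coffee and 11.2, 12.2, 15.2 and 14.01 FPKM in control (-0.59 ± 0.19 SE), with coffee 3 level with control 1. The scavenger receptor gene Igf2r had 9.50, 11.4, 10.5 and 9.85 FPKM in coffee and 12.4, 12.5, 13.5 and 11.6 FPKM in control (-0.26 ± 0.068 SE), and the binding protein gene Igfbp5 is given above. Among WNT, BMP and TGF-beta genes 19 of 26 were lower, 11 at an unadjusted p under 0.05 and 6 without overlap (median -0.36, -0.18 without the 3 marrow-rich libraries and -0.057 with the marrow covariate). The ligand Tgfb3 had 7.67, 8.46, 9.04 and 7.43 FPKM in coffee and 10.5, 10.7, 10.5 and 11.2 FPKM in control (-0.36 ± 0.10 SE). The receptor Tgfbr2 had 24.1, 23.5, 26.95 and 22.1 FPKM in coffee and 29.7, 31.2, 37.6 and 30.8 FPKM in control (-0.40 ± 0.12 SE). Dkk3, of a family of secreted WNT modulators, had 37.9 to 52.8 FPKM in coffee and 63.4 to 76.9 FPKM in control. Tgfb1, which blood cells also make, was on the other side, at 28.01, 16.2, 12.6 and 27.7 FPKM in coffee and 14.2, 10.9, 10.1 and 9.69 FPKM in control, with the highest values in coffee 1 and coffee 4.

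Genes that glucocorticoid hormones induce were lower in 14 of 15 tested members, 9 at an unadjusted limma p under 0.05 (11.0% of all genes), with a median of -0.46 that lay within 1.5 times of that value under every alternative run. Their list means were 4.61, 4.90, 4.53 and 4.44 in coffee 1 to 4 and 5.29, 4.78, 4.98 and 5.27 in control 1 to 4, and coffee 2 overlapped with control 2. The transcription factor gene Zbtb16 had 6.37, 3.64, 5.77 and 2.76 FPKM in coffee and 8.65, 8.10, 9.31 and 12.5 FPKM in control (-0.95 ± 0.28 SE). The transcription factor gene Klf9 had 28.8, 38.2, 29.6 and 24.8 FPKM in coffee and 55.2, 34.6, 41.99 and 53.6 FPKM in control (-0.59 ± 0.18 SE), with coffee 2 above control 2. The cell cycle inhibitor gene Cdkn1a had 28.6, 35.6, 29.8 and 33.4 FPKM in coffee and 39.01, 47.95, 53.3 and 62.5 FPKM in control (-0.64 ± 0.14 SE). In Zbtb16 and Cdkn1a no library of coffee reached a control. Clock genes were lower in 12 of 19, 3 at an unadjusted p under 0.05, but the median of -0.063 was -0.18 without coffee 2, -0.16 without coffee 3, 0.0046 without coffee 4, -0.032 without control 1, -0.10 without control 3, -0.15 without control 4, 0.025 without the 3 marrow-rich libraries and 0.084 with the marrow covariate. Arntl, or BMAL1, the activator of the clock, had 1.47, 1.88, 1.64 and 3.25 FPKM in coffee and 2.67, 3.96, 3.77 and 3.60 FPKM in control. Npas2, which can stand in for the partner of BMAL1, had 0.806, 1.54, 1.03 and 2.42 FPKM in coffee and 1.72, 2.91, 2.27 and 2.60 FPKM in control. Coffee 4 lay among the controls in both. The hour of dissection is not given in the sources used here, so time of day and treatment cannot be told apart for these lists. Immediate early genes were near even (9 higher and 11 lower, median -0.023, -0.094 without the 3 marrow-rich libraries and -0.19 with the marrow covariate), with Dusp1 at 22.4 to 36.04 FPKM in coffee and 31.8 to 66.9 FPKM in control and Myc at 4.36 to 12.6 FPKM in coffee and 3.32 to 6.48 FPKM in control.

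In metabolism, Gatm was the leading gene of a creatine and glycine list that was otherwise mixed (8 of 13 higher, median 0.14, 0.039 without coffee 2, -0.0034 without coffee 3 and 0.041 without control 3). Shmt1, a folate enzyme, had 1.88 to 3.44 FPKM in coffee and 1.26 to 1.80 FPKM in control (0.51), and Psph, the last step of serine synthesis, 2.99 to 3.82 FPKM in coffee and 3.61 to 4.24 FPKM in control (-0.21). Genes of AMP-activated kinase were higher in 9 of 13, 3 at an unadjusted limma p under 0.05, where 9.28% of all genes stood. The median was 0.042 (0.026 without coffee 2, 0.073 without coffee 3, 0.093 without control 2, 0.019 without control 3, 0.0060 without the 3 marrow-rich libraries and 0.15 with the marrow covariate). Beside Prkab2 there stood Fnip1, a folliculin partner that binds the kinase, at 8.95 to 9.51 FPKM in coffee and 6.91 to 8.62 FPKM in control (0.19), and the upstream kinase gene Camkk2, at 3.32 to 6.30 FPKM in coffee and 2.49 to 3.75 FPKM in control (0.50). Fatty acid oxidation genes were lower in 16 of 18 (median -0.27) with 1 at an unadjusted limma p under 0.05, where 11.0% of all genes stood. The median was -0.16 without coffee 1, -0.14 without control 2 and 0.044 with the marrow covariate. Pdk4, which turns fuel use from glucose to fat, had 6.18 to 17.9 FPKM in coffee and 13.8 to 26.2 FPKM in control. Nuclear genes of the respiratory chain were lower in 26 of 27, with a median of -0.16 and 2 at an unadjusted p under 0.05, against 11.0% of all genes. Their list means were 5.89, 6.16, 6.41 and 6.21 in coffee 1 to 4 and 6.26, 6.52, 6.22 and 6.33 in control 1 to 4, so that coffee 1 was the lowest library, and the median was -0.062 without coffee 1, -0.098 without control 2, -0.043 without the 3 marrow-rich libraries and 0.051 with the marrow covariate. Cholesterol synthesis genes were higher in 16 of 20 by little (median 0.10, -0.021 without coffee 2, 0.16 without coffee 3, 0.24 without control 2, 0.022 without control 3, 0.18 without the 3 marrow-rich libraries and 0.31 with the marrow covariate). Glycolysis genes were near even, 9 higher and 9 lower (median 0.016, 0.067 without the 3 marrow-rich libraries and 0.047 with the marrow covariate). Hexokinase 2, Hk2, was higher in every coffee library (7.73 to 11.7 FPKM in coffee and 5.75 to 7.52 FPKM in control) and phosphofructokinase, Pfkl, lower (16.8 to 22.5 FPKM in coffee and 23.4 to 31.9 FPKM in control).

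Interferon response and MHC class I genes lay on the higher side, with the list means of coffee 1 above those of the other coffee libraries and of the controls. All 22 interferon response genes had a higher mean in coffee, 8 at an unadjusted limma p under 0.05, where 9.28% of all genes stood, but none without overlap. The list means were 5.94, 4.53, 3.37 and 3.93 in coffee 1 to 4 and 3.24, 3.11, 3.73 and 3.78 in control 1 to 4, and the median of 0.92 was 0.44 without coffee 1 and 0.47 without the 3 marrow-rich libraries. Oas2, an antiviral synthetase, had 57.4, 21.8, 3.16 and 18.5 FPKM in coffee and 3.76, 3.19, 6.75 and 2.88 FPKM in control. Coffee 3 lay within the controls. MHC class I genes were higher in 13 of 13, 9 at an unadjusted p under 0.05 (median 0.63, 0.26 without the 3 marrow-rich libraries and 0.16 with the marrow covariate). B2m, the shared light chain, had 1941, 1242, 955 and 1455 FPKM in coffee and 809.8, 772, 970.1 and 1010.0 FPKM in control. Psmb9, an immunoproteasome subunit, had 17.6, 8.46, 5.32 and 11.2 FPKM in coffee and 4.98, 4.50, 5.16 and 4.52 FPKM in control, with no overlap but coffee 3 close to the controls. Complement genes were mixed, 9 higher and 6 lower, with 1 each way at an unadjusted p under 0.05 (median 0.18, 0.12 without coffee 1, 0.017 without the 3 marrow-rich libraries and -0.15 with the marrow covariate). C4b had 32.8, 34.7, 26.8 and 29.3 FPKM in coffee and 23.2, 24.2, 21.6 and 26.96 FPKM in control (0.35 ± 0.089 SE), with coffee 3 just under control 4. It had 20.4 ± 0.828 FPKM on average in GTE (coffee minus GTE 0.57 ± 0.089 SE, limma adjusted p = 0.343). Clusterin, Clu, which binds complement and misfolded proteins, was lower, at 266, 392, 409 and 300.1 FPKM in coffee and 455, 467, 894 and 471 FPKM in control, where control 3 stood alone.

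Genes of marrow and of dividing cells lay on the higher side. All 20 mitosis genes were higher in coffee and all 20 had an unadjusted limma p under 0.05 (9.28% of all genes), with 13 without overlap (5.97% of all genes) and a median of 0.95 (0.56 without the 3 marrow-rich libraries and -0.097 with the marrow covariate). The list means were 3.94, 2.97, 3.08 and 3.79 in coffee 1 to 4 and 2.85, 2.21, 2.78 and 2.05 in control 1 to 4. The mitotic kinase gene Plk1 had 19.8, 9.05, 8.78 and 15.6 FPKM in coffee and 5.90, 4.61, 5.05 and 3.32 FPKM in control. Cyclin B1, Ccnb1, had 16.1, 6.80, 8.69 and 13.4 FPKM in coffee and 5.65, 3.41, 6.13 and 3.10 FPKM in control. DNA replication genes were higher in 22 of 22 (13 at an unadjusted p under 0.05, median 0.68, 0.33 without the 3 marrow-rich libraries and -0.15 with the marrow covariate), among them the licensing factor Cdt1 at 5.02 to 12.4 FPKM in coffee and 2.11 to 4.49 FPKM in control. Granule genes of neutrophil precursors were higher in 16 of 17 (median 0.84, 0.55 without the 3 marrow-rich libraries and -0.015 with the marrow covariate, a covariate made of the same genes). Mpo, the peroxidase of these granules, had 259.96, 162, 118 and 204 FPKM in coffee and 89.8, 54.8, 62.4 and 24.5 FPKM in control (1.74 ± 0.48 SE). Of the granule proteases, Prtn3 had 256 to 472 FPKM in coffee and 57.8 to 167 FPKM in control, and Ctsg had 237 to 364 FPKM in coffee and 47.1 to 148 FPKM in control. Mature neutrophil genes were higher in 15 of 15 (median 0.64, 0.28 without the 3 marrow-rich libraries and -0.021 with the marrow covariate), with S100a8 at 3331 to 4888 FPKM in coffee and 1922 to 3102 FPKM in control. Megakaryocyte genes were higher in 13 of 13 (median 0.86, 0.33 without the 3 marrow-rich libraries and -0.29 with the marrow covariate), 1 at an unadjusted p under 0.05, and red cell precursor genes in 17 of 22 with none there. The red cell median of 0.77 was 0.50 without coffee 1, 1.17 without coffee 3, 0.40 without coffee 4, 0.49 without control 4, -0.28 without the 3 marrow-rich libraries and -0.66 with the marrow covariate.

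Lymphoid genes had higher means too, in 11 of 12 of the B lineage, 11 of 14 of antibody and plasma cells and 10 of 10 of T and NK cells. Ighg2b, an antibody heavy chain, had 101, 28.2, 55.5 and 69.7 FPKM in coffee and 28.1, 21.8, 14.4 and 16.9 FPKM in control (1.50 ± 0.42 SE). Nkg7, of cytotoxic cells, had 63.3, 35.6, 31.3 and 50.6 FPKM in coffee and 25.6, 11.8, 15.8 and 11.5 FPKM in control (1.44 ± 0.41 SE). Nkg7 is also among the 17 granule genes of neutrophil precursors and so enters the marrow covariate. Its value is therefore not particular to lymphoid cells. Only 10 of the 19 T and NK genes were tested, and Cd3e, Cd8a and Gzmb were among those too low. The B lineage median was 0.50 (0.25 without coffee 4, 0.10 without the 3 marrow-rich libraries and -0.070 with the marrow covariate). That of antibody and plasma cells was 0.44 (0.073 without the 3 marrow-rich libraries and 0.073 with the marrow covariate), and that of T and NK cells 0.66 (0.43 without coffee 1, 0.21 without the 3 marrow-rich libraries and 0.16 with the marrow covariate). Of 16 macrophage genes 12 were higher and 4 lower. At an unadjusted limma p under 0.05, 3 were higher and 3 lower, where 9.28% and 11.0% of all genes stood. The median was 0.23 (0.15 without coffee 4, 0.031 without the 3 marrow-rich libraries and 0.010 with the marrow covariate). Ccr2 of recruited monocytes had 36.1, 12.003, 21.8 and 31.3 FPKM in coffee and 15.8, 9.17, 12.1 and 10.6 FPKM in control (0.94 ± 0.34 SE), with coffee 2 inside the control range. Among the 4 lower ones, the resident macrophage gene Cd163 had 2.38, 2.44, 2.12 and 2.42 FPKM in coffee and 3.41, 2.87, 3.05 and 3.30 FPKM in control (-0.31 ± 0.10 SE). Mertk, a receptor for dying cells, had 10.1, 9.79, 8.60 and 9.97 FPKM in coffee and 11.1, 11.4, 10.5 and 11.04 FPKM in control (-0.18 ± 0.072 SE), so that both were lower in every coffee library. Cd163 and Mertk do not stand for the macrophage list, in which 12 of 16 genes had a higher mean. Of 11 mast cell and basophil genes 7 were higher and 4 lower, with 2 higher and 3 lower at an unadjusted p under 0.05, against the same shares of all genes. The median was 0.12 (0.20 without coffee 2, 0.19 without coffee 3, 0.29 without control 1, 0.065 without control 3, 0.074 without the 3 marrow-rich libraries and -0.066 with the marrow covariate). Tpsb2, a tryptase, had 2.77, 1.93, 3.07 and 1.57 FPKM in coffee and 7.25, 5.68, 6.22 and 3.78 FPKM in control (-1.01 ± 0.34 SE). Mcpt4, a chymase, had 3.38, 1.99, 3.06 and 2.35 FPKM in coffee and 7.54, 3.84, 6.18 and 3.39 FPKM in control (-0.72 ± 0.26 SE). In GTE cochleae Tpsb2 averaged 2.51 ± 1.69 FPKM and Mcpt4 2.43 ± 1.12 FPKM.

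Genes linked to ageing and cell survival showed single differences more than shared ones. Cell death genes were higher in 14 of 18, 5 higher and 1 lower at an unadjusted limma p under 0.05, where 9.28% and 11.0% of all genes stood (median 0.29, 0.19 without control 2, 0.085 without the 3 marrow-rich libraries and -0.099 with the marrow covariate). The exception was Bcl2l1, or BCL-XL, a survival factor, at 23.6, 30.9, 25.5 and 21.7 FPKM in coffee and 30.98, 31.1, 34.5 and 32.4 FPKM in control (-0.34 ± 0.10 SE). Apaf1, the scaffold of the apoptosome, was at 8.56, 4.59, 4.57 and 7.08 FPKM in coffee and 4.34, 2.57, 3.53 and 2.89 FPKM in control. The sestrin genes, whose products damp oxidative stress and growth signalling, split. Sesn1 had 19.99, 19.5, 22.1 and 19.7 FPKM in coffee and 27.8, 24.98, 25.3 and 31.6 FPKM in control (-0.41 ± 0.10 SE). Sesn2 had 6.68, 5.40, 4.76 and 6.17 FPKM in coffee and 3.98, 4.36, 3.62 and 4.50 FPKM in control (0.40 ± 0.12 SE), and neither overlapped. Foxo1, a longevity-associated transcription factor that insulin signalling restrains, had 4.54, 4.62, 4.63 and 4.23 FPKM in coffee and 5.97, 5.70, 6.39 and 6.35 FPKM in control (-0.37 ± 0.092 SE). Sirtuin and NAD genes as a list were near even (10 higher and 8 lower, median 0.027, -0.0037 without the 3 marrow-rich libraries and -0.016 with the marrow covariate). Iron genes were near even as well (6 higher and 7 lower, median -0.023, -0.064 and -0.093 in the same order), with ceruloplasmin, Cp, at 41.2 to 62.6 FPKM in coffee and 62.4 to 93.04 FPKM in control and the iron exporter ferroportin, Slc40a1, at 4.62 to 12.1 FPKM in coffee and 3.25 to 5.16 FPKM in control. In limma, none of the genes of this paragraph passed across all genes (adjusted p of 0.194 or more).

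Genes of bordering tissues, of antigen presentation and of lysosomes did not pass in limma across all genes either. Osteoclast genes, of the cells that resorb bone, were higher in 13 of 14, 3 at an unadjusted limma p under 0.05, where 9.28% of all genes stood (median 0.35, 0.21 without coffee 1, 0.18 without control 4, 0.13 without the 3 marrow-rich libraries and -0.098 with the marrow covariate). Mmp9, which stood at that p, is also on the list of mature neutrophils, and Car2 on that of red cell precursors. The cells of origin of their transcripts were not tested. Tcirg1, a proton pump subunit of these cells, had 61.2, 35.8, 34.2 and 43.8 FPKM in coffee and 34.6, 29.9, 30.5 and 27.1 FPKM in control (0.47 ± 0.20 SE). Fat genes were lower in 13 of 15, 1 at an unadjusted limma p under 0.05 (11.0% of all genes), with a median of -0.52 (-0.12 without coffee 1, -0.89 without coffee 4, -0.26 without control 2, -0.31 without the 3 marrow-rich libraries and 0.37 with the marrow covariate). Car3, a carbonic anhydrase abundant in fat and muscle, had 166, 172, 292 and 208 FPKM in coffee and 299, 292, 374 and 323 FPKM in control (-0.65 ± 0.22 SE), and the highest coffee library overlapped the lowest control. Car3 was the fat gene at that p, but it is also on the list of spiral ligament fibrocytes. It is thus counted in both lists, and its tissue of origin was not tested. Of 14 genes of ciliated and mucosal epithelium 11 were lower, with a median of -0.17 (-0.047 without coffee 1, -0.34 without coffee 2, -0.31 without coffee 3, -0.035 without coffee 4, -0.32 without control 2, 0.072 without control 3, -0.28 without control 4, 0.17 without the 3 marrow-rich libraries and 0.0089 with the marrow covariate). Epcam, an adhesion protein of epithelia, had 36.3, 51.8, 63.2 and 33.7 FPKM in coffee and 65.3, 66.7, 92.1 and 62.5 FPKM in control (-0.65 ± 0.24 SE). MHC class II genes, which present antigen, were higher in all 9, 2 at an unadjusted limma p under 0.05, but the median of 0.16 was 0.069 without coffee 1, 0.32 without coffee 3, -0.013 without coffee 4, 0.26 without control 1, 0.057 without control 3, -0.19 without the 3 marrow-rich libraries and -0.090 with the marrow covariate. Ctss, the protease that prepares class II molecules for loading, had 249.6, 137, 139 and 225 FPKM in coffee and 129, 107, 118 and 127 FPKM in control (0.59 ± 0.21 SE), so that every coffee library lay above the controls. In autophagy and lysosome genes the directions were mixed, 10 higher and 12 lower (median -0.037, -0.066 without coffee 4, -0.012 without control 2 and -0.057 without control 4). Ctsl, a lysosomal protease, had 38.6, 44.03, 40.2 and 41.5 FPKM in coffee and 47.3, 50.9, 63.3 and 54.7 FPKM in control (-0.38 ± 0.13 SE), all coffee libraries lying below the controls.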

How the data were processed

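The 12 cochlear RNA libraries, made with a stranded mRNA kit per the labels, were deposited as FPKM per Ensembl gene, computed by the authors. Trimmomatic, HISAT2, Cufflinks, HTSeq and build mm10 are named in the submitters' processing notes. The annotation release and strand setting are not stated in those notes, so antisense or overlapping genes may share reads (4308 of the 15331 genes share exon bases).

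Genes with at least 1 FPKM in 4 of the 8 coffee and control libraries were fitted as log2(FPKM + 1) with limma 3.58.1 in R 4.3.3, as 3 group means over 12 libraries with a mean-variance trend. P-values were Benjamini-Hochberg adjusted over all 15331 genes at a threshold of 0.05. The pseudocount understates differences of low genes. The code was tested on simulated data. For 31897 genes (92.4%) FPKM, exon length and depth multiplied to whole fragments in all libraries (tolerance 0.01), and voom on these fragments was an alternative chosen after seeing the data. No libraries were identical.

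Named were genes past the threshold, in each direction the 12 with the smallest p (2 FPKM or more on average where higher) and the 8 with the largest difference at an unadjusted p under 0.01, up to 3 members per list by p, and caffeine targets by role. The 61 lists hold 1090 genes, of which 995 were tested. The gene rule and lists were chosen with earlier results of these data known. Promoters come from RefSeq on GRCm38.p6. Some genes are not reported here.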

Additional observations from a re-analysis of the deposited data

Results flagged for a closer look

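In 388 groups of 4 libraries, those of the genes and lists described, 16 had a library whose gap to the nearest other exceeded Dixon's critical value, as a part of the range. Chance gives this in about 1 in 20 groups. Coffee 3 was that library in 5 of the 6 coffee cases. It had 54.7 FPKM of Igkv2-109 against 9.76 at most in the other coffee libraries, 11.4 FPKM of Emcn against 7.02 at most, and 3.82 FPKM of Psph against 3.12 at most. Its list mean of log2(FPKM + 1) was 4.46 for creatine and glycine metabolism, above the others at 3.86 to 3.91, and 3.35 for senescence and DNA damage, below the others at 3.59 to 3.63. Ctsg was at 364 FPKM in coffee 1, above the other coffee libraries at 237 to 251 FPKM.

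Among control libraries, Clu was at 894 FPKM in control 3, above the others at 455 to 471 FPKM. Epcam was at 92.1 FPKM in control 3 (others at most 66.7). Efemp1 was at 122 FPKM in control 4 (others at most 96.7), Otos at 369 FPKM in control 2 (others at most 342) and Pfkl at 31.9 FPKM in control 2 (others at most 24.4). Plod2 was lowest in control 4 at 12.0 FPKM (others at least 14.3), and Itpr2 in control 1 at 4.47 FPKM (others at least 4.79). List means were highest in control 1 for antibody and plasma cells (4.60, others at most 3.87) and the circadian clock (3.47, others at most 3.29), and in control 4 for the mitochondrial genome (9.51, others at most 8.94).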

How the results depend on the processing

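In limma, 1 gene passed the adjusted threshold, and the count was 1 with a pseudocount of 0.1 or 0.5, a mean of at least 5 FPKM, quantile or median ratio scaling, no mean-variance trend and voom. It was 0 without a filter on low values, rescaled without mitochondrial and haemoglobin genes, with only the 8 coffee and control libraries, with robust moderation and without coffee 1, coffee 4 and GTE 1, where 4136, 3040, 3643, 3082 and 1465 genes had an unadjusted p under 0.05. It was 2 with the marrow covariate (1626 unadjusted) and 2622 with library weights (5451 unadjusted). Leaving out 1 library gave 0 to 105 adjusted calls, 1538 to 4263 unadjusted ones and 2152 to 4405 genes without overlap, against 1, 3115 and 1992. The causes were not tested. The values do not settle whether the replicate numbers pair the libraries. Deviations of same-numbered coffee and control libraries correlated at 0.144, 0.356, 0.264 and -0.058. Coffee 1, 2 and 3 and control 2 and 3 correlated best with their own number, and coffee 4, control 1 and control 4 with another. Replicate 1 had the highest granule list mean of its group in coffee (8.16), control (7.29) and GTE (8.36). A batch shared by replicate number was not tested. A replicate block gave 0 adjusted and 3912 unadjusted calls (Serpinh1 adjusted p = 0.0933). With the marrow covariate 7 named genes turned direction, none with a log2 difference over 0.12 in size: Ada (-0.056), Apaf1 (-0.082), Pdk4 (0.043), S100a8 (-0.0087), Shmt1 (-0.088), Tcirg1 (-0.054) and Tgfb1 (-0.12). No other named gene did so under any alternative run, leaving aside the caffeine receptors, given by level only. Genes near 1 FPKM are limited by depth.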
